A study of Mus musculus with 6 samples.

Results

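Glutathione and thiol antioxidant genes encode the enzymes that make and recycle the tripeptide glutathione, couple it to foreign or oxidised molecules, and remove superoxide and peroxides. Members were taken by gene symbol: the glutathione S-transferases, glutathione peroxidases, peroxiredoxins, thioredoxins, glutaredoxins, superoxide dismutases 1 to 3, and Cat, Gclc, Gclm, Gss, Gsr, Nqo1 and Hmox1. This gave 54 of the 19937 named genes on the array, each read from 1 probe set, the brightest of the gene by its mean. The rule uses symbols and mean levels and no difference between the treatments, although it was written with earlier results of these data known.

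RNA came from primary neurospheres, floating colonies grown by neural precursor cells, of the hippocampus of C57BL/6J male mice aged 8 to 12 weeks. The sample titles of both groups call them big neurospheres. Both groups were cultured with EGF and bFGF and harvested on day 14. One group of 3 samples had received 10 µM norepinephrine and the other group of 3 samples had received 15 mM KCl, which depolarises neurons. With no untreated group analysed here, it cannot be told under which treatment a gene departed from its usual level. Samples carry the label of biological replicates, but the labels name no animal, pool or culture for any of them, so a p-value reflects only how these samples vary, which may be technical. Values are log2 expression values, a difference is norepinephrine minus KCl in log2 units, and errors are standard errors (SE) of the difference or standard deviations (SD) over 3 arrays. The number of arrays limits the precision.

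In the brain the glutathione system is centred on astrocytes and other glia. Glutamate-cysteine ligase and glutathione synthetase make the peptide, peroxidases and glutaredoxins use it, transferases attach it to electrophiles, and glutathione reductase restores it with NADPH. Thioredoxins and peroxiredoxins form a parallel relay through cysteine thiols, and many genes of both systems are targets of the transcription factor NRF2, encoded by Nfe2l2.

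One array stood apart. KCl replicate 1 had a standard deviation of 1.38 over the 21640 named probe sets, against 1.62 to 1.78 on the other 5 arrays, and its mean correlation with the others was 0.906, against 0.956 to 0.969. Bright probe sets read low there: among the 5410 brightest named probe sets the median of KCl replicate 1 minus the mean of the other KCl arrays was -0.53, and among the 5410 dimmest it was 0.53. Of the 54 members 27 lay among the brightest 5410, and 13 read more than 1 log2 unit lower on KCl replicate 1 than on the mean of the other KCl arrays, Gclm by the most at -3.00. Differences are therefore given with and without that array.

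**Figure D1:**
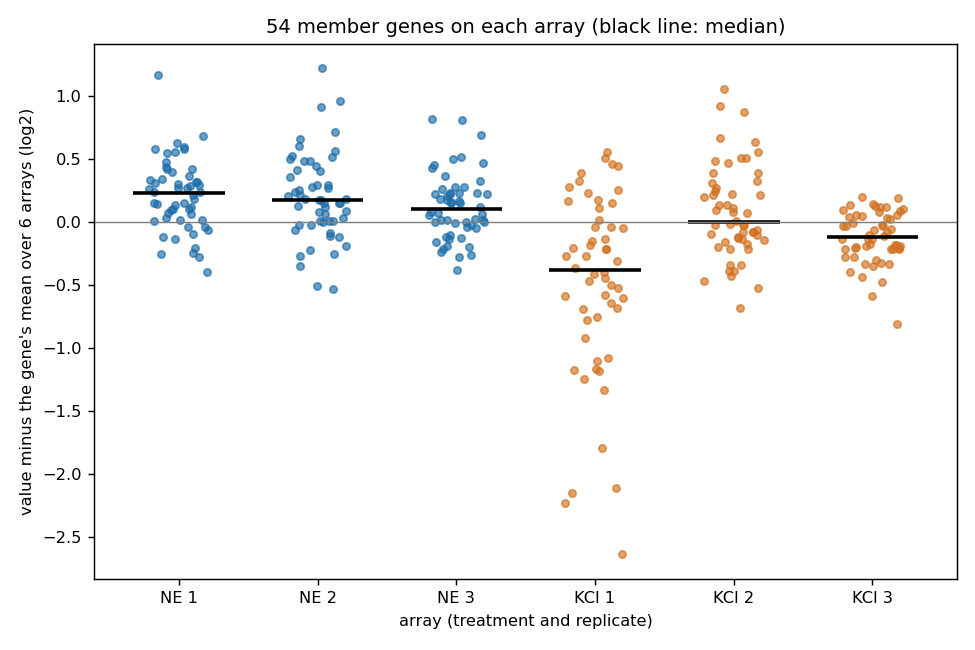
Each point is 1 of the 54 genes, plotted as its log2 value on an array minus its own mean over 6 arrays, with the 3 norepinephrine (NE) arrays in blue and the 3 KCl arrays in orange. The black line is the median, which was -0.38 on KCl replicate 1 and lay between -0.12 and 0.23 on the other 5 arrays.

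Of the 54 genes 39 read higher with norepinephrine, with a median difference of 0.31, and the genes with the smallest p-values were the mu class transferases Gstm7 and Gstm6, the peroxidases Gpx3 and Gpx7, and heme oxygenase 1. Over all named probe sets 38.0% read higher with norepinephrine and the median was -0.075. None of the 54 passed the test (limma, Benjamini-Hochberg adjustment over all named probe sets, adjusted p under 0.05), where 0.00% of named probe sets passed, and the lowest adjusted p of a member was 0.837, for Gstm7. At an unadjusted p under 0.05 there were 11 members, all higher with norepinephrine, or 20.4% of the list against 2.20% of named probe sets in that direction. In the opposite direction there were 0 members, against 1.24%, and over both directions the share of named probe sets was 3.43%. Every norepinephrine array read above every KCl array for 17 members, or 31.5%, against 4.36% of named probe sets, and below every KCl array for 1 member, Gstm2, against 4.77%.

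On the 5 arrays other than KCl replicate 1, 40 of 54 members read higher with norepinephrine, against 52.2% of named probe sets, and the median was 0.18, against 0.008. There 0 members passed the adjusted threshold, against 0.0185% of named probe sets, and Gstm7 had the lowest adjusted p in limma, 0.333. Members with an unadjusted p under 0.05 again numbered 11 on the norepinephrine side, against 2.38% of named probe sets, and 1 on the KCl side, Gpx8, against 2.25%, with 4.63% of named probe sets over both sides. Of the 11 members found on 6 arrays 8 were also found here: Gstm1, Gstm3, Gstm6, Gstm7, Gsto1, Gpx3, Gpx7 and Hmox1. Glrx, Gpx1 and Txn2 were not, and Gstm4, Gstp1 and Txnl4b came in. Non-overlapping groups with norepinephrine higher numbered 18 members, or 33.3%, against 8.13%, and those with KCl higher numbered 3, Gpx8, Gstm2 and Txn1, against 8.08%. Leaving out other arrays moved the count over both directions too, for members and named probe sets alike. It was 24 members, or 44.4%, against 16.3% of named probe sets, without KCl replicate 2. It was 7 members, or 13.0%, against 1.46%, without norepinephrine replicate 1, and 6 members, or 11.1%, against 1.65%, without norepinephrine replicate 3.

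**Figure D2:**
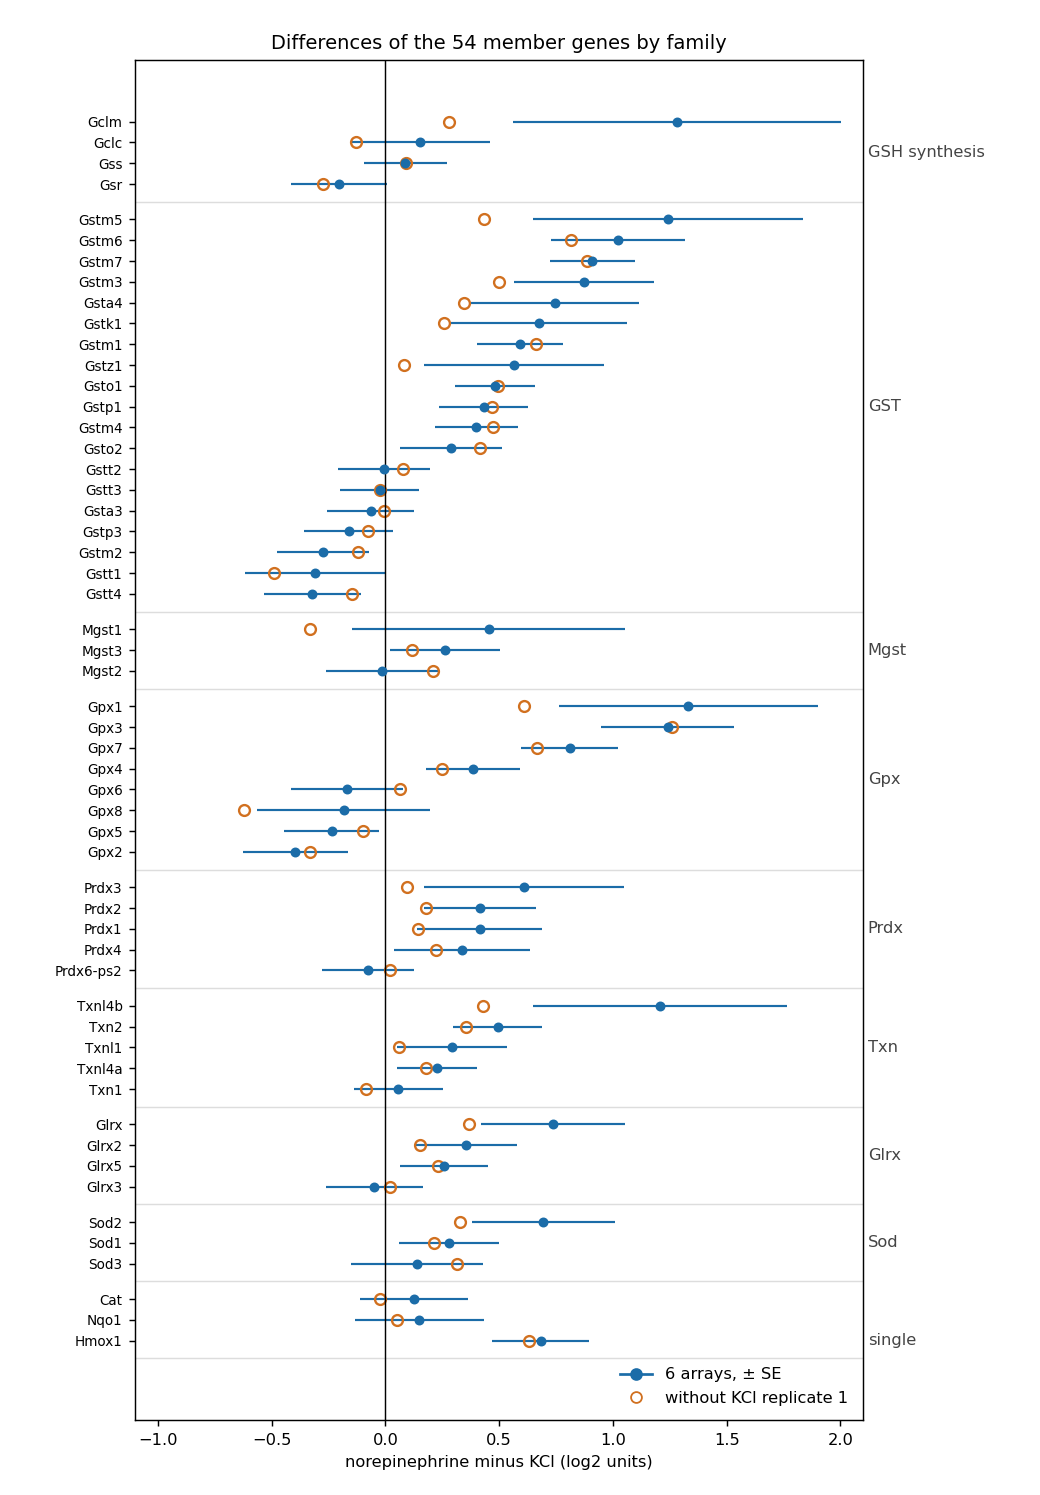
Norepinephrine minus KCl in log2 units for the 54 genes, grouped by family, with blue points for 6 arrays (bars are SE) and open orange circles for the 5 arrays without KCl replicate 1. Gstm7, Gpx3, Gsto1 and Hmox1 stay in place without that array, while Gclm moves from 1.28 to 0.28 and Mgst1 from 0.45 to -0.33.

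The level of a gene also went with the size of its difference. The median difference was -0.18 among the 5410 dimmest named probe sets and 0.15 among the 5410 brightest, and both were near 0 without KCl replicate 1, at 0.00 and -0.013. The 27 members among the brightest had a median of 0.42 on 6 arrays and of 0.23 without that array, and 24 and 22 of them read higher with norepinephrine. Of the 5410 brightest named probe sets 3807 read higher with norepinephrine on 6 arrays and 2599 without KCl replicate 1. On 6 arrays 262 of them had an unadjusted limma p under 0.05 with norepinephrine higher and 47 with KCl higher. Among the 27 members these counts were 6 and 0. Without KCl replicate 1 they were 218 and 185, against 5 and 1 members. Non-overlapping groups with norepinephrine higher numbered 511, against 10 members, and 597 without that array, against 10. With KCl higher they numbered 166, against 0 members, and 589, against 2. The 7 members among the dimmest had a median of -0.17 and of -0.005.

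**Figure D3:**
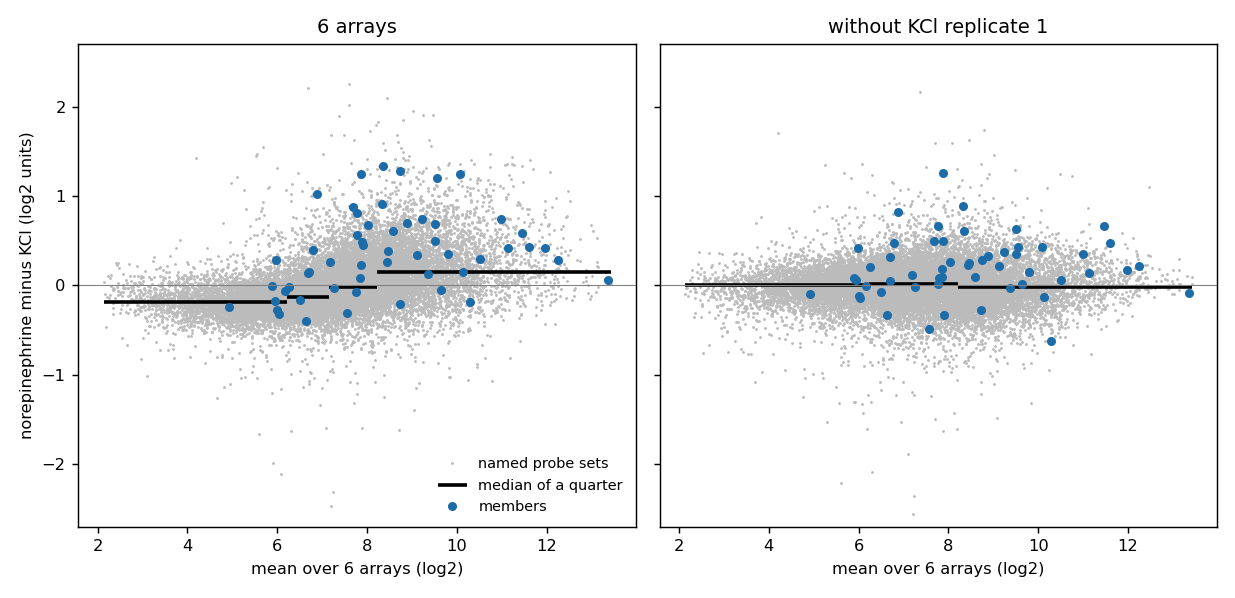
Norepinephrine minus KCl (log2 units) against the mean over 6 arrays (log2) for the 21640 named probe sets in grey and the 54 members in blue, on 6 arrays at left and without KCl replicate 1 at right. Black lines are the medians of 4 equal classes of named probe sets by level, which climb from -0.18 to 0.15 at left and are close to 0 at right, where the members of the brightest class still have a median of 0.23.

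For the genes of glutathione synthesis and reduction the differences were small or rested on KCl replicate 1. Gclc, the catalytic subunit of glutamate-cysteine ligase, read 10.02, 10.62 and 10.00 on norepinephrine replicates 1 to 3 and 9.49, 10.61 and 10.08 on the KCl arrays, a difference of 0.15 ± 0.31 (SE). The groups overlapped, and without KCl replicate 1 the difference was -0.13. Its partner Gclm, the modifier subunit, read 9.06, 9.65 and 9.44 with norepinephrine and 6.10, 9.41 and 8.80 with KCl, a difference of 1.28 ± 0.72. That value rested on the single low KCl reading, and it was 0.28 without it. Glutathione synthetase, Gss, which adds glycine in the final step, read 7.89, 8.00 and 7.81 with norepinephrine and 7.82, 7.95 and 7.66 with KCl, a difference of 0.09 ± 0.18. Gsr, the reductase, read 8.34, 8.80 and 8.76 against 8.69, 9.06 and 8.76, at -0.20 ± 0.21. Without KCl replicate 1 Gss stood at 0.09 and Gsr at -0.28. The median of the 4 genes was 0.12 on 6 arrays and -0.020 without KCl replicate 1, and 0 of them had an unadjusted p under 0.05.

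The glutathione S-transferases, which attach glutathione to electrophilic compounds, were the largest family with 19 genes. Of these 12 read higher with norepinephrine, 5 had an unadjusted p under 0.05, and the median was 0.43, or 0.35 without KCl replicate 1. The mu class held 4 of those 5. Its 7 genes lie next to one another on mouse chromosome 3, and 6 of them read higher with norepinephrine, with a class median of 0.87 on 6 arrays and 0.50 without KCl replicate 1. Both medians are the value of Gstm3, read from its brighter probe set, while its second probe set stood at -0.29. The counts of 4 and 6 include Gstm3 by the brighter probe set. Whether that probe set lies in the chromosome 3 cluster was not checked.

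Gstm7 had the smallest p of the 54 genes. It read 8.95, 8.57 and 8.83 with norepinephrine and 7.83, 7.94 and 7.85 with KCl, so that all 3 norepinephrine arrays lay above all 3 KCl arrays. The group means were 8.78 ± 0.20 (SD) and 7.87 ± 0.06, a difference of 0.91 ± 0.19 (SE) or 1.88-fold, and 0.89 without KCl replicate 1. Gstm1, a mu transferase present in astrocytes, read 11.72, 11.82 and 11.72 against 11.31, 10.93 and 11.24. Its groups did not overlap either, and the difference of 0.59 ± 0.19 was 0.66 without KCl replicate 1. Gstm6 read 7.03, 7.84 and 7.31 against 5.96, 6.85 and 6.29, a difference of 1.02 ± 0.29, or 0.82 without that array. For Gstm6 the replicates numbered 2 were the highest of each group, and the lowest norepinephrine reading was close above the highest KCl reading.

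For Gstm5 and Gstm3 the size of the difference depended on KCl replicate 1. Gstm5 read 10.76, 10.74 and 10.59 with norepinephrine and 7.84, 10.63 and 9.89 with KCl, a difference of 1.24 ± 0.59 that was 0.43 without KCl replicate 1. The groups of Gstm5 overlapped, since KCl replicate 2 read above norepinephrine replicate 3. Gstm3 read 8.11, 8.21 and 8.05 against 6.50, 7.59 and 7.65, a difference of 0.87 ± 0.31, or 0.50 without that array. A second Gstm3 probe set went the other way, at -0.29 ± 0.19 and at -0.16 without KCl replicate 1, with every norepinephrine array below every KCl array. Gstm4 stood at 0.40 ± 0.18 and, without KCl replicate 1, at 0.47, with groups that did not overlap. Gstm2 stood at -0.28 ± 0.20 and at -0.12, with KCl higher on all arrays. Its probe set was among the 5410 dimmest, of which 4748 read higher with KCl on 6 arrays and 662 with norepinephrine. Mu class genes are similar in sequence, and how far a probe set also reads a neighbour was not tested.

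**Figure D4:**
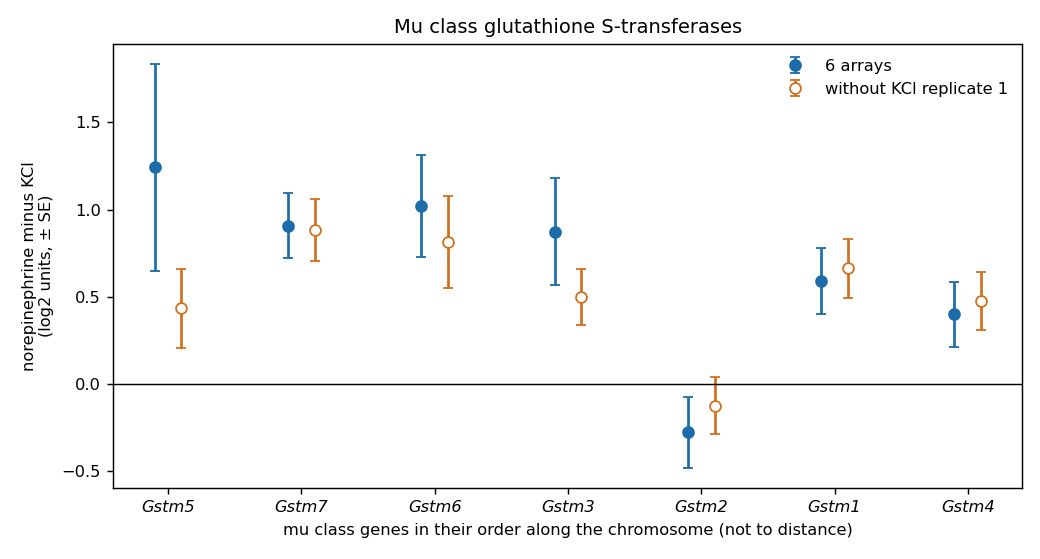
Norepinephrine minus KCl (log2 units, bars are SE) for the 7 mu class genes in their order along the chromosome, with filled blue points for 6 arrays and open orange points without KCl replicate 1. Gstm2 at -0.28, from a probe set among the dimmest named ones, lies between Gstm3 at 0.87 and Gstm1 at 0.59. Gstm3 is plotted from its brighter probe set, and its second probe set, not plotted, stood at -0.29.

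Among the other transferase classes the omega enzyme Gsto1, which reduces dehydroascorbate and arsenic compounds, was the 1 gene with an unadjusted p under 0.05. It read 8.21, 8.07 and 8.11 with norepinephrine and 7.67, 7.72 and 7.55 with KCl, a difference of 0.48 ± 0.17 that was 0.49 without KCl replicate 1, with no overlap. The other omega gene, Gsto2, stood at 0.29 ± 0.22, and at 0.42 without KCl replicate 1. The pi class gene Gstp1 stood at 0.43 ± 0.20, with no overlap, and at 0.47 without KCl replicate 1, while Gstp3 stood at -0.16 ± 0.20 and at -0.08. Gsta4, an alpha enzyme that conjugates the lipid peroxidation product hydroxynonenal, stood at 0.74 ± 0.37, the kappa gene Gstk1 at 0.68 ± 0.39 and the zeta gene Gstz1, of tyrosine breakdown, at 0.57 ± 0.40. These 3 values were 0.35, 0.26 and 0.083 without KCl replicate 1. The 4 theta genes ranged from -0.32 for Gstt4 to -0.007 for Gstt2, with a median of -0.17. Without KCl replicate 1 they ranged from -0.49 for Gstt1 to 0.08 for Gstt2, with a median of -0.084. Gsta3 stood at -0.07 ± 0.19 on 6 arrays and at -0.0046 without that array. The 3 microsomal transferases, membrane proteins of another protein family, had a median of 0.26 on 6 arrays and of 0.12 without KCl replicate 1. Mgst1 read 8.09, 8.39 and 7.93 with norepinephrine and 6.11, 8.97 and 7.97 with KCl, so that its KCl arrays lay on both sides of the norepinephrine arrays. Its difference was 0.45 ± 0.60, and -0.33 without KCl replicate 1. Mgst2 stood at -0.01 ± 0.25 and Mgst3 at 0.26 ± 0.24, or at 0.21 and 0.12 without that array.

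The glutathione peroxidases, which reduce hydrogen peroxide and lipid peroxides, read higher with norepinephrine in 4 genes and lower in 4. Their median was 0.11 on 6 arrays, 0.16 without KCl replicate 1 and 0.34 without KCl replicate 2. Filters on level, which drop dim peroxidases, gave 0.60 above the 30th percentile of mean level and 0.81 above its median. Gpx3, the secreted peroxidase, read 8.45, 9.09 and 7.93 with norepinephrine and 7.28, 7.40 and 7.06 with KCl. All norepinephrine arrays lay above all KCl arrays, and the difference was 1.24 ± 0.29, or 2.36-fold, and 1.26 without KCl replicate 1. Gpx7, a peroxidase of the endoplasmic reticulum that takes part in oxidative protein folding, read 8.35, 8.19 and 8.00 against 7.08, 7.65 and 7.38. Its difference was 0.81 ± 0.21, with no overlap, and 0.67 without KCl replicate 1. Gpx8, its relative in the same compartment, stood at -0.18 ± 0.38 on 6 arrays and at -0.62 without KCl replicate 1, so that the direction was opposite to that of Gpx7, a contrast that was not tested.

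The cytosolic enzyme Gpx1 had the largest difference of all 54 genes at 1.33 ± 0.57, but its arrays were spread widely. It read 9.52, 8.35 and 9.17 with norepinephrine and 6.24, 8.32 and 8.49 with KCl, the groups overlapped, and the difference was 0.61 without KCl replicate 1. Gpx4, which protects membranes from lipid peroxidation and blocks ferroptosis, read 8.86, 8.50 and 8.62 against 8.00, 8.39 and 8.43. Its groups did not overlap, with a difference of 0.39 ± 0.21 and of 0.25 without KCl replicate 1. A second Gpx4 probe set stood at 0.30 ± 0.36, or 0.75 without that array. Gpx2, the peroxidase of the gut lining, Gpx5 of the epididymis and Gpx6 of the olfactory epithelium stood at -0.40 ± 0.23, -0.24 ± 0.21 and -0.17 ± 0.25. Without KCl replicate 1 these values were -0.33, -0.10 and 0.06.

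**Figure D5:**
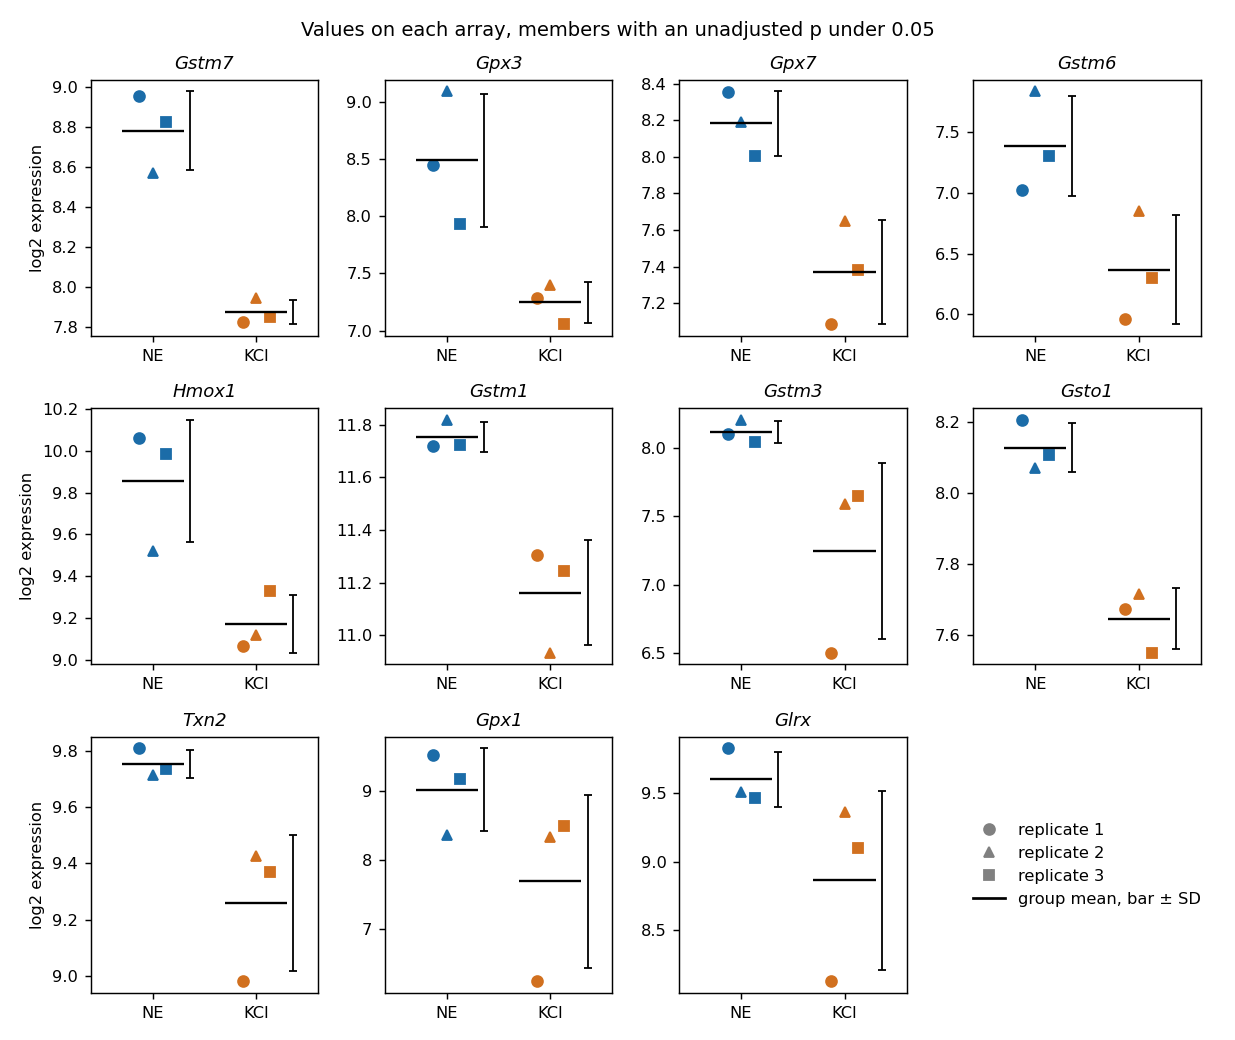
Log2 values on each array for the 11 members with an unadjusted p under 0.05 on 6 arrays, with norepinephrine (NE) in blue and KCl in orange, symbols for the replicate numbers, horizontal lines for group means and bars for ± SD. Each panel has its own axis, and the groups are apart in all panels but that of Gpx1, where norepinephrine replicate 2 at 8.35 lies below KCl replicate 3 at 8.49.

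Peroxiredoxins reduce peroxides with electrons from thioredoxin. The 5 members do not include Prdx5 or Prdx6, and 1 of them is the pseudogene Prdx6-ps2. Their median was 0.41 on 6 arrays and 0.14 without KCl replicate 1, and 0 had an unadjusted p under 0.05. Prdx1, of the cytosol, read 11.50, 11.21 and 11.32 with norepinephrine and 10.38, 11.44 and 10.96 with KCl, a difference of 0.41 ± 0.27 with overlapping groups, and of 0.14 without KCl replicate 1. A second Prdx1 probe set was at 7.12 on KCl replicate 1 while the remaining arrays spanned 10.61 to 11.13, which gave 1.40 ± 0.87 on 6 arrays and 0.15 without that array. The mitochondrial Prdx3 read 8.88, 9.20 and 8.61 against 7.25, 9.23 and 8.37, a difference of 0.61 ± 0.44 that was 0.094 without KCl replicate 1. The cytosolic Prdx2 and the endoplasmic reticulum enzyme Prdx4 stood at 0.42 ± 0.24 and 0.34 ± 0.30, and the pseudogene Prdx6-ps2 at -0.08 ± 0.20. Without KCl replicate 1 these values were 0.18, 0.22 and 0.02. Prdx2 was read from its brighter probe set, and its second stood at 0.77 ± 0.51, or 0.077 without that array.

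Thioredoxins pass electrons to peroxiredoxins and other proteins, and all 5 members read higher with norepinephrine. Txn1, the cytosolic form, read 13.47, 13.34 and 13.37 with norepinephrine and 13.06, 13.48 and 13.49 with KCl, a difference of 0.06 ± 0.20, and -0.09 without KCl replicate 1. Txn2, the mitochondrial form, read 9.81, 9.71 and 9.74 against 8.98, 9.43 and 9.37, with no overlap. The Txn2 difference was 0.49 ± 0.20, and 0.35 without KCl replicate 1. Txnl4b, which despite its symbol belongs to a family of splicing proteins, read 10.03, 10.07 and 10.36 against 7.40, 9.78 and 9.67. Its difference of 1.21 ± 0.56 was 0.43 without KCl replicate 1, and its splicing relative Txnl4a stood at 0.23 ± 0.18 and at 0.18. The proteasome-associated Txnl1 stood at 0.29 ± 0.24, and at 0.06 without KCl replicate 1. The median of the 5 members was 0.29 on 6 arrays and 0.18 without that array.

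The glutaredoxins use glutathione to undo mixed disulfides or carry iron-sulfur clusters. Glrx, the cytosolic disulfide reductase, read 9.83, 9.51 and 9.46 with norepinephrine and 8.13, 9.36 and 9.10 with KCl, a difference of 0.74 ± 0.32 that was 0.37 without KCl replicate 1. Its groups did not overlap. The mitochondrial Glrx2 stood at 0.36 ± 0.22, with no overlap, and at 0.15 without KCl replicate 1. The iron-sulfur proteins Glrx5 and Glrx3 stood at 0.26 ± 0.19 and -0.05 ± 0.21, or at 0.23 and 0.02 without that array. The median of the 4 members was 0.31, and 0.19 without it.

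Of the superoxide dismutases, which turn superoxide into hydrogen peroxide, the mitochondrial manganese enzyme Sod2 was farthest from 0. It read 9.20, 9.30 and 9.21 with norepinephrine and 7.81, 9.13 and 8.68 with KCl, with no overlap and a difference of 0.69 ± 0.31, or 0.33 without KCl replicate 1. Sod1, the copper-zinc enzyme of the cytosol, read 12.27, 12.70 and 12.21 against 11.98, 12.39 and 11.98, at 0.28 ± 0.22. The extracellular Sod3 read 6.94, 6.44 and 6.92 against 6.98, 6.01 and 6.90, at 0.14 ± 0.29. Both of these had overlapping groups, and without KCl replicate 1 they stood at 0.21 and 0.31.

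Hmox1, heme oxygenase 1, which breaks down heme and is strongly induced by oxidative stress, read 10.06, 9.52 and 9.98 with norepinephrine and 9.07, 9.12 and 9.33 with KCl. All norepinephrine arrays lay above all KCl arrays, at 0.68 ± 0.21, or 1.60-fold, and at 0.63 without KCl replicate 1. Catalase, Cat, which splits hydrogen peroxide in peroxisomes, read 9.51, 9.51 and 9.26 against 8.99, 9.75 and 9.15, at 0.13 ± 0.24. The quinone reductase Nqo1, a standard NRF2 target, read 6.43, 6.998 and 6.91 against 6.43, 7.19 and 6.27, at 0.15 ± 0.28. The groups of Cat and Nqo1 overlapped, and without KCl replicate 1 they stood at -0.02 and 0.05.

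Other genes of the thiol and NRF2 systems came from a separate list of 54 genes, of which 52 were measured. Of these 36 read higher with norepinephrine, with a median of 0.14 on 6 arrays and 0.070 without KCl replicate 1. Again 0 passed the adjusted threshold, and 5, or 9.62%, had an unadjusted p under 0.05 against 2.20% of named probe sets, all higher with norepinephrine. They were the ferritin chains Ftl1 and Fth1, which store the iron that heme oxygenase releases, the thioredoxin-binding protein Txnip, the sulfiredoxin Srxn1, which repairs overoxidised peroxiredoxins, and Cbs, which feeds homocysteine toward cysteine. Ftl1 stood at 0.80 ± 0.19, Fth1 at 0.88 ± 0.30, Txnip at 0.88 ± 0.23, Srxn1 at 0.61 ± 0.18 and Cbs at 0.58 ± 0.19. Without KCl replicate 1 the same genes stood at 0.69, 0.53, 1.00, 0.68 and 0.57. There 6 genes of the list, these 5 and Slc7a11, had an unadjusted p under 0.05. That was 11.5% of the list, all higher with norepinephrine, against 2.38% of named probe sets in that direction.

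For the regulator itself the groups overlapped. Nfe2l2 read 10.27, 10.69 and 10.56 with norepinephrine and 8.70, 10.67 and 10.07 with KCl, a difference of 0.69 ± 0.44 that was 0.14 without KCl replicate 1. Keap1, which holds NRF2 for degradation, stood at 0.12 ± 0.22 and thioredoxin reductase 1, Txnrd1, at 0.19 ± 0.18, or at 0.31 and 0.15 without that array. The cystine transporter subunit Slc7a11 read 9.56, 9.79 and 9.65 with norepinephrine and 6.24, 9.16 and 9.25 with KCl, and its groups did not overlap. Its difference was 1.45 ± 0.69 on 6 arrays and 0.46 without KCl replicate 1.

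Promoter windows from RefSeq (build GRCm38.p6, 250 bases before to 50 after a start site) were searched on both strands for TGACNNNGC, the core of the antioxidant response element that NRF2 binds. Sequence outside these windows was not searched, so a gene without a match may still have such an element farther away. Of the 54 members 45 had a window, and 7 of these, or 15.6%, held the core, against 14.0% of 27025 genes. Those 7 were Gclm, Gsta3, Gstm5, Gstm7, Mgst1, Prdx1 and Sod1, and their differences ran from -0.07 for Gsta3 to 1.28 for Gclm. Without KCl replicate 1 the differences of those 7 ran from -0.33 for Mgst1 to 0.89 for Gstm7. Short stretches around the core are shown for 3 of them, as members of different families, with the match to the core in capitals. They run 5′ to 3′ on the strand of the gene, which is the plus strand, and in Gclm and Prdx1 the match is on the opposite strand. The last 80 bases before the start of Gpx3 and of Gpx7, the peroxidases with the smallest p-values, hold no match to these letters. The windows are chr3:122245397-122245457 for Gclm, chr3:107895786-107895846 for Gstm5, chr4:116685440-116685500 for Prdx1, chr11:54902774-54902853 for Gpx3 and chr4:108406714-108406793, on the minus strand, for Gpx7.
Gclm: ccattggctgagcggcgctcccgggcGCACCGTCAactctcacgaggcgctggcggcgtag
Gstm5: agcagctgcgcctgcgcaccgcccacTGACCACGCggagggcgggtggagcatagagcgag
Prdx1: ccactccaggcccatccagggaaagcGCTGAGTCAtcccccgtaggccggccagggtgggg
Gpx3: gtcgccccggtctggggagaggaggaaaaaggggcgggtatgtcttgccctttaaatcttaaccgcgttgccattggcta
Gpx7: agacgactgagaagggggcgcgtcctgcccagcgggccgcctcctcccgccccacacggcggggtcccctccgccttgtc

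Markers of cell types were read beside these genes, because astrocytes carry much of the glutathione system. Of 7 astrocyte markers 6 read higher with norepinephrine, with a median of 0.73 on 6 arrays and 0.40 without KCl replicate 1. The remaining one, S100b, stood at -0.29, and at -0.19 without that array. The mean of the list was 9.19 to 9.47 on the norepinephrine arrays and 8.10 to 8.77 on the KCl arrays. Gfap, a filament protein of astrocytes that the radial glia-like stem cells of the hippocampus also make, read 8.11, 8.81 and 8.02 with norepinephrine and 6.97, 6.12 and 6.18 with KCl, a difference of 1.89 ± 0.30. Without KCl replicate 1 its difference was 2.17 and passed the adjusted threshold (limma, adjusted p = 0.045), where 0 of the 54 members did. The 7 measured neural precursor markers had a list mean of 9.56 to 9.72 with norepinephrine and 9.34 to 9.70 with KCl. Of these 3 read higher with norepinephrine and 4 lower. Prom1 at 0.60 and Vim at 0.44 were higher on all norepinephrine arrays, and Hes1 at -0.38 was lower on all. Without KCl replicate 1 these 3 stood at 0.66, 0.28 and -0.39, and Nes moved from -0.10 to -0.58. Of 6 neuron markers 4 read higher with norepinephrine, with a list mean of 7.57 to 7.94 against 7.43 to 7.64. Their groups did not overlap for Snap25, a synaptic protein, at 1.03 ± 0.27, or 0.90 without KCl replicate 1, and for Tubb3, a neuronal tubulin, at 0.47 ± 0.18, or 0.44. Map2 was lower on all norepinephrine arrays at -0.33 ± 0.18, or -0.40 without KCl replicate 1. The 5 measured oligodendrocyte markers had a list mean of 7.29 to 7.38 against 7.10 to 7.63, and the 4 ependyma markers one of 6.83 to 6.96 against 6.58 to 7.11. Of the 7 microglia markers 0 read higher with norepinephrine on 6 arrays and 4 without KCl replicate 1. For the 5 endothelial markers these counts were 0 and 3. The microglia list mean was 6.04 to 6.21 with norepinephrine and 6.02 to 6.76 with KCl, and the endothelial one 5.99 to 6.17 and 5.95 to 6.65. KCl replicate 1 gave the upper KCl value of both lists. Whether list means this low are above background could not be assessed. The part of the astrocyte and neuron markers in the member differences was not tested, and in a mixed culture fewer cells of a type and less RNA per cell cannot be told apart.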

How the data were processed

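The authors deposited log2 expression values for 6 arrays. Partek and RMA are named in the submitters' processing notes, and their versions and settings were not found in the sources used here. Probe sets with 1 gene symbol in the platform table (21640 of 34760) were kept, and 21553 were matched by Entrez identifier to RefSeq for GRCm38.p6, which changed 0 symbols. Groups were compared with limma (version 3.58.1, R 4.3.3, two-sided, moderated, without covariates), with Benjamini-Hochberg adjustment over the 21640. The script was tested on simulated data, in which no array had a narrow spread like that of KCl replicate 1. Values on every array are given for fixed core genes (Cat, Gclc, Gclm, Gss, Gsr, Nqo1, Hmox1, Sod1 to Sod3, Gpx1, Gpx4, Prdx1, Txn1, Txn2 and Glrx), for members with an unadjusted p under 0.05 on 6 arrays and for the largest absolute difference of each family. Prdx6 was also fixed as a core gene but is not among the members. Other members are given by their differences. Members and lists were chosen with earlier results of these data known. Alternatives were array scaling, level filters, moderation, array weights, the replicate block, the choice of probe set and leaving out each array.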

Additional observations from a re-analysis of the deposited data

How the results depend on the processing

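Of the 15 alternatives 11 could be run for all 54 members. The filters on level kept 46 and 40 members, and the choices of probe set bear on 4 genes. Of the 54 differences 39 kept their direction under every alternative that gave them a value, among them those of the 11 members with an unadjusted p under 0.05, and 15 changed sign under at least 1. Gstm6, 1 of the 11, has no value above the median level. For Gstm3, also among the 11, the choice by variance took the same probe set, and the mean of its probe sets gave 0.29. No alternative used its second probe set alone, which stood at -0.29. Leaving out each array in turn, the lowest and highest values were -0.024 and 0.35 for Cat, -0.13 and 0.43 for Gclc, -0.21 and 0.047 for Glrx3, -0.38 and 0.063 for Gpx6, -0.62 and 0.23 for Gpx8, -0.17 and 0.036 for Gsta3, -0.49 and 0.053 for Gstt1, -0.088 and 0.12 for Gstt2, and -0.073 and 0.019 for Gstt3. They were -0.33 and 1.10 for Mgst1, -0.13 and 0.21 for Mgst2, -0.033 and 0.43 for Nqo1, -0.19 and 0.018 for Prdx6-ps2, -0.17 and 0.31 for Sod3, and -0.086 and 0.13 for Txn1. A further quantile normalization turned Gsta3 to 0.061, Gstt2 to 0.13, Gstt3 to 0.021 and Mgst2 to 0.10. Centring each array turned Gstt2 to 0.031, Gstt3 to 0.012 and Mgst2 to 0.023.

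Leaving out each array in turn, members at an unadjusted p under 0.05 numbered 6 to 24, or 11.1% to 44.4%, against 1.46% to 16.3% of named probe sets, and named probe sets past the adjusted threshold 0 to 4. The labels do not say that equal replicate numbers mark a shared animal, so the numbers were not taken as pairs in the main fit. The deviations of equally numbered samples correlated at 0.30, 0.63 and 0.085, and those of unequally numbered samples at -0.47 to 0.31. Whether the samples were paired was not settled by these values. With the replicate number as a block, members at an unadjusted p under 0.05 numbered 17, or 31.5%, all higher with norepinephrine, against 6.64% of named probe sets in either direction and 4.24% in that one, and 0 probe sets passed the adjusted threshold. Array weights by the default method did not converge and are not given. Gene-by-gene weights, chosen after seeing the data, put 93.8% of the weight of the KCl group on KCl replicate 3. That fit called 1454 of the 21640 named probe sets and 14 of the 54 members at the adjusted threshold. It had 29 members at an unadjusted p under 0.05, or 53.7%, against 23.9% of named probe sets. Of these members 27 were higher with norepinephrine, where the share of named probe sets was 11.2%, and 2 with KCl. The weights turned Glrx3 to 0.22, Gstt2 to 0.082, Mgst2 to 0.23, Sod3 to -0.0086 and Txn1 to -0.074. The filter above the median level also moved the median of the glutathione S-transferases from 0.43 to 0.59 and of the superoxide dismutases from 0.28 to 0.49, and the latter was 0.41 without KCl replicate 2. The cause of these changes was not tested. Signal over background could not be assessed.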

Other observations

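Further probe sets list a member together with other genes. A pair shared by Gstp1 and Gstp2 stood at 0.75 and 0.40, or 0.50 and 0.45 without KCl replicate 1. The 3 probe sets shared by Gsta1, Gsta2 and other genes stood at 0.30, -0.12 and -0.11, and the one shared by Glrx3 and Gm12669 at -0.24. Without KCl replicate 1 these values were 0.53, -0.012, 0.048 and -0.16. The second probe set of Prdx2 stood at 0.77 ± 0.51 (SE), and at 0.077 without KCl replicate 1.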
